A study of Mus musculus with 16 samples.

Results

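The interleukin-1 (IL-1) family and inflammasome genes were described as 10 genes, Il1b, Il33, Il18, Il1rn, Il1r1, Il1r2, Il1rl1, Nlrp3, Pycard and Casp1, chosen by symbol. Each entry of the expression table is a RefSeq transcript, and an entry was taken as a member when its RefSeq accession maps to 1 of these symbols. The 10 genes held 45 of the 130343 entries, and 10 of the 35556 symbols in the table. RNA was measured by bulk poly-A sequencing in inguinal subcutaneous adipose tissue (SAT) and mesenteric visceral adipose tissue (VAT) of male C57BL/6J mice. From 10 weeks of age the 4 obese mice were kept for 12 to 14 months on chow in which fat gave 42% of the kilocalories, with 0.2% cholesterol, and the 4 lean mice ate normal laboratory chow. Each mouse gave 1 SAT and 1 VAT library, 16 in all. Left and right inguinal depots of a mouse were combined, and all libraries are whole tissue, in which fewer cells of a type and less RNA per cell cannot be told apart. No mouse carried an engineered allele or received a drug according to the labels.

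IL-1 signaling starts when a cell releases IL-1α or IL-1β, which bind the receptor IL1R1 and activate NF-κB through MYD88 and IRAK kinases. IL-1β and IL-18 are made as inactive precursors. The inflammasome is a protein assembly in which a sensor such as NLRP3 recruits the adaptor ASC, encoded by Pycard, which in turn recruits and activates caspase-1, encoded by Casp1, the protease that cuts both precursors. The pathway is restrained by the receptor antagonist encoded by Il1rn, which occupies IL1R1 without signaling, and by the decoy receptor IL1R2. IL-33 is released by damaged stromal cells and binds ST2, encoded by Il1rl1, on group 2 innate lymphoid cells and regulatory T cells. In adipose tissue macrophages are a known source of inflammasome components, and the pathway is studied there for its links to obesity and insulin resistance.

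Obese VAT held more RNA for the receptor antagonist and for the adaptor than lean VAT. Pycard was 1.98-fold higher. Il1rn was about 14.7-fold higher in the fit, against 11 counts in lean VAT, and of the 8 libraries that took it past the filter on low counts (a CPM above 1 in at least 3 libraries) all but lean SAT replicate 1 were obese. Casp1 was 1.55-fold higher in obese VAT and 1.47-fold higher in obese SAT, and neither difference passed in edgeR, while DESeq2 called Casp1 in VAT (adjusted p = 0.0468). In SAT edgeR called none of these 3 members, the only ones tested. The other 7, Il1b, Il18, Il33, Il1r1, Il1r2, Il1rl1 and Nlrp3, were under the filter.

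The members differed in their number of entries and in their counts. Casp1 and Pycard have 1 entry each, and these 2 entries held 10815 of the 11322 counts on the members (95.5%). The other 8 members have 43 entries and held 507 counts. Of the 45 entries 23 had no count in any library. For the 7 members other than Casp1, Pycard and Il1rn, 13 of the 17 entries of curated protein-coding transcripts had no count, and 205 counts were spread over 39 entries. The sources used here do not state how reads shared by several transcripts of a gene were treated, so a low count of a gene with several entries was not read as low expression. Over all coding genes in the table the median total was 38 counts for genes with several entries, 28 for those with 5 or more and 25 for those with 1. These are different genes, and a loss of shared reads was not tested. Total counts ran from 1256082 in lean VAT replicate 1 to 16614407 in obese SAT replicate 3, so that 1 count stood for between 0.0602 and 0.796 CPM (counts scaled to the library total). The adipocyte markers summed to at least 7655 CPM in every library, and 8 mesothelium markers to at most 1.41 CPM in SAT and at least 258 CPM in VAT, as the tissue labels say. The VAT library of obese replicate 4 stood apart, with 1936 CPM of lipid-associated macrophage markers against 602 to 700 CPM in the other 3 obese VAT libraries.

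**Figure D1:**
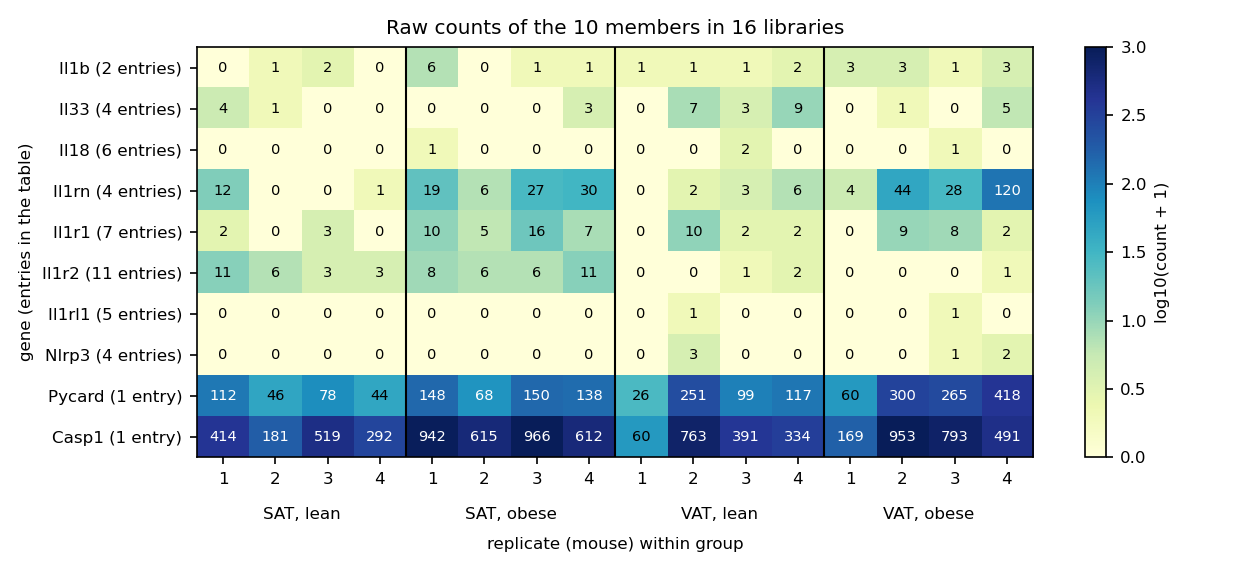
Raw counts of each member (rows, with its number of entries in the table) in each library (columns, grouped by tissue and diet, numbered by replicate), with color on a log10(count + 1) scale. Pycard and Casp1 had at least 26 counts in every library, whereas Il1rl1, Nlrp3 and Il18 were at 0 in most libraries.

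The promoters of the 3 members with enough counts to test are shown because the text returns to their response to the diet. Each is the 250 bases before a RefSeq start site, read 5′ to 3′ on the gene's strand, from RefSeq sequences on GRCm38.p6 that match GRCm39, the build of the counts, at 1 place. The Casp1 window lies at chr9:5298267-5298516 on the plus strand, the Il1rn window at chr2:24226622-24226871 on the plus strand, and the Pycard window at chr7:127593040-127593289 on the minus strand. Capitals mark matches on either strand to a κB-like motif (GGG and CC separated by 5 bases of any kind), GAGGAA (a core of PU.1 sites) and TGANTCA (AP-1).
Casp1: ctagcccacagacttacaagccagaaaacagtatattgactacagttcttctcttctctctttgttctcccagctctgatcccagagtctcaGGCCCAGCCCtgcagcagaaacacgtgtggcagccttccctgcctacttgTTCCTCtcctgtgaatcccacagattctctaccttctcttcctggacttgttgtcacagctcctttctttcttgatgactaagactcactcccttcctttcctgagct
Il1rn: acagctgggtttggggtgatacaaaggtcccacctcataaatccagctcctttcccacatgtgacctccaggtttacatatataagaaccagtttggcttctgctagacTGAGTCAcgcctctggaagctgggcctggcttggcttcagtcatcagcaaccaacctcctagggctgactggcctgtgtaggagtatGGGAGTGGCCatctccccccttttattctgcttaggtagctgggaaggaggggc
Pycard: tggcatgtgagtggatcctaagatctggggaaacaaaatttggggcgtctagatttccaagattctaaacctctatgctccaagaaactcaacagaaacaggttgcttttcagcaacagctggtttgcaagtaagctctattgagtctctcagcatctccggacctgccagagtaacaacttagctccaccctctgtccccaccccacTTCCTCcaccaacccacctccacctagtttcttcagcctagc
The κB-like letters stood at positions -158 to -149 from the Casp1 start site and -54 to -45 from the Il1rn start site, the PU.1 core at -108 to -103 in Casp1 and -42 to -37 in Pycard, and the AP-1 letters at -141 to -135 in Il1rn. No match overlapped a match to another motif. Among 32851 promoter windows of the same length, 45.8% held the κB-like letters, 23.3% the PU.1 core and 6.75% the AP-1 letters, so that matches to the first and second were common. Il1rn has 2 further start sites, 8431 bases downstream and 80 bases after that. The window of the nearer site, not printed here, held no match to these motifs. That of the farther site held κB-like letters at -51 to -42 and no match to the others. The reference tables do not say which Il1rn entry starts at which site.

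Il1rn, the gene of the secreted and intracellular IL-1 receptor antagonists, lies at chr2:24226865-24241506 in GRCm39 and has 4 entries, which summed to 302 counts. In VAT its 4 lean libraries, replicates 1 to 4, held 0, 0.119, 0.323 and 0.658 CPM after scaling by the trimmed mean of M values (TMM), and its 4 obese libraries 1.52, 3.55, 2.61 and 9.96 CPM. The obese VAT values were above the lean ones, with the highest in obese replicate 4, but lean replicate 1 is too shallow to place, since a count of 0 there allows up to 2.39 CPM, above the 1.52 CPM of obese replicate 1. The group means were 0.275 ± 0.288 and 4.41 ± 3.79 CPM (SD, n = 4 mice each). The log2 fold change was 3.88 (SE 0.75, adjusted p = 0.00147, edgeR's quasi-likelihood test with Benjamini-Hochberg adjustment over 12185 genes). Without obese replicate 4 it was 3.10 (adjusted p = 0.0174), and without lean replicate 1 it was 3.81 (adjusted p = 7.90e-04). The lean libraries held 11 Il1rn counts in all and the obese libraries 196, and without its obese libraries Il1rn would not have passed the filter, since 1 lean library, SAT replicate 1, was above 1 CPM before TMM scaling. In this comparison 12.2% of all genes tested passed, 6.89% as higher in obese VAT, and 7.98% had obese libraries all above the lean ones.

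In SAT Il1rn was at 0.997, 0, 0 and 0.213 CPM in the lean libraries and at 1.45, 0.636, 1.85 and 2.32 CPM in the obese libraries. The groups overlapped because lean replicate 1, which held 12 of the 13 lean SAT counts, was above obese replicate 2. The log2 fold change was 2.10 (SE 0.75, edgeR adjusted p = 0.0740) and did not pass. Without lean replicate 1 it was 4.80 (adjusted p = 0.00927), without a filter on low counts 2.14 (adjusted p = 7.90e-04), and with a block by replicate number 2.05 (adjusted p = 0.0487). The fit without a filter took no spread of Il1rn itself between mice, so its adjusted p is not on a par with the others. In this comparison 11.6% of all genes tested passed, 6.35% as higher in obese SAT. The diet response of Il1rn did not differ detectably between VAT and SAT (difference of log2 fold changes 0.52, SE 1.18, adjusted p = 0.889).

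Between the tissues Il1rn was higher in VAT than in SAT of the obese mice, by 1.38 on the log2 scale (SE 0.45, edgeR adjusted p = 0.0233, mouse as a block), while no difference was called in lean mice. There the fit with the mouse as a block gave 0.86 (SE 0.94, adjusted p = 0.610), although the mean was lower in VAT, at 0.275 CPM against 0.303 CPM in SAT, the fit with no block gave -0.21, and leaving out lean replicate 1 gave 2.55, so its direction is not settled. The obese libraries of the tissues overlapped, and the result rested on single mice. It was 1.05 (adjusted p = 0.267) without obese replicate 4 and 1.12 (adjusted p = 0.118) without obese replicate 2. Among all genes tested 31.4% passed between the tissues of obese mice, 16.3% as higher in VAT, and 15.9% passed in lean mice, 8.67% as higher in VAT.

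Of the 4 Il1rn entries 3 had counts. NM_001039701 held 163, NM_031167 92 and NM_001159562 47 counts, and the predicted transcript XM_006497727 held none. NM_001039701 held 1 of 13 Il1rn counts in lean SAT (7.69%, exact 95% interval 0.195 to 36.0%), 44 of 82 in obese SAT (53.7%, 42.3 to 64.8%), 7 of 11 in lean VAT (63.6%, 30.8 to 89.1%) and 111 of 196 in obese VAT (56.6%, 49.4 to 63.7%). The intervals cover counting error only, and those of the lean groups are wide. Tested as an entry of its own, NM_001039701 had a log2 fold change of 4.40 in SAT (SE 0.89, edgeR adjusted p = 0.00242) and of 3.78 in VAT (SE 0.61, adjusted p = 2.58e-04). Of the 13288 entries tested 6.21% rose in SAT and 6.84% in VAT. The entry passed the filter only through obese libraries, the side called higher, so these tests add little to the counts in either tissue. Its fold change in SAT stands against 1 lean count and has no firm size, and that in VAT stands against 7. NM_031167 had no count in lean VAT and 63 in obese VAT, with 0, 9, 6 and 48 in replicates 1 to 4, so the groups overlapped. Pooled over libraries, the obese rate was 20.9 times a floor of 3 counts over the lean group. This ratio leaves out the spread between mice. Of the 63 counts 48 were in obese replicate 4, and without that library, a check chosen after seeing the data, the pooled rate was 7.16 times that floor. Reads that lie on exons shared by the entries may be missing from these counts.

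**Figure D2:**
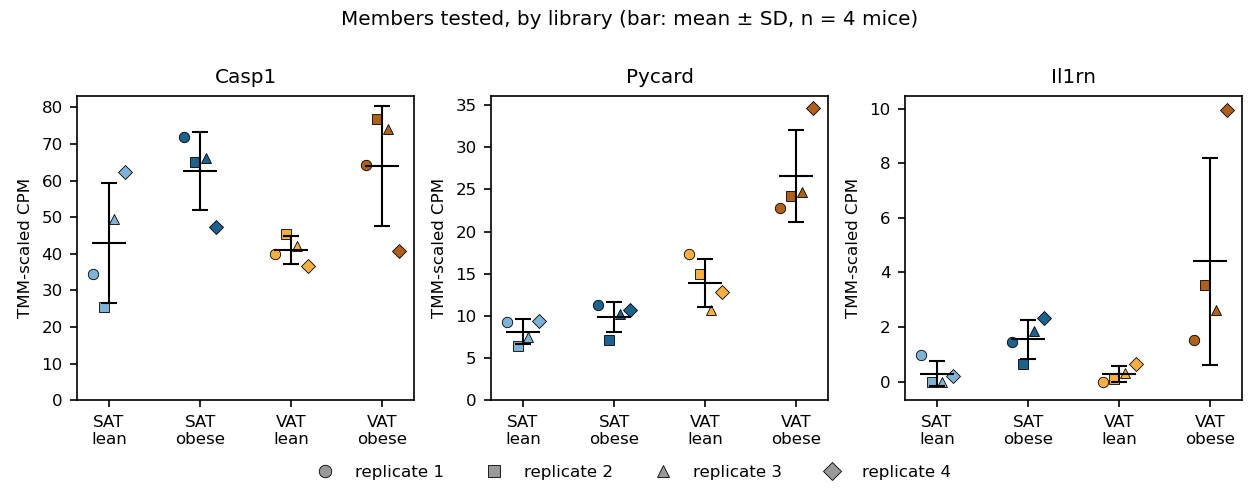
TMM-scaled CPM of Casp1, Pycard and Il1rn in each library, by tissue and diet, with symbols for the replicate and bars for the mean ± SD (n = 4 mice). Obese VAT libraries were all above lean VAT libraries for Pycard, and obese replicate 4 had the highest Pycard and Il1rn and the lowest Casp1 of the obese VAT libraries.

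Pycard, the gene of the inflammasome adaptor ASC, lies at chr7:127588558-127593039 on the minus strand of GRCm39 and had 2320 counts on its single entry, NM_023258. In VAT the lean libraries held 17.3, 15.0, 10.7 and 12.8 CPM and the obese libraries 22.9, 24.2, 24.7 and 34.7 CPM. Every obese VAT library was above every lean one. The means were 13.9 ± 2.85 and 26.6 ± 5.44 CPM (SD, n = 4), and Pycard rose by 0.99 on the log2 scale (SE 0.19, edgeR adjusted p = 0.00168). Without obese replicate 4 the value was 0.85 (adjusted p = 0.0129). In SAT the lean libraries held 9.31, 6.46, 7.46 and 9.38 CPM and the obese libraries 11.3, 7.21, 10.3 and 10.7 CPM. These groups overlapped through obese replicate 2, and the log2 fold change of 0.28 (SE 0.20, adjusted p = 0.394) did not pass. The response was larger in VAT than in SAT by 0.68 on the log2 scale (SE 0.26), which had an unadjusted p of 0.0177 and an adjusted p of 0.196 in edgeR. No difference between the responses of the tissues was therefore called for Pycard, although its diet comparison passed in VAT and not in SAT. Of all genes tested 2.47% passed in that comparison.

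Pycard also set the tissues apart. It was higher in VAT than in SAT by 0.76 on the log2 scale in lean mice (SE 0.19, edgeR adjusted p = 0.00887) and by 1.44 in obese mice (SE 0.18, adjusted p = 3.23e-06). Every VAT library was above every SAT library of its diet, and 9.22% of all genes tested showed this in lean mice and 15.1% in obese mice. The lean result was lost without lean replicate 2, where it was 0.59 (adjusted p = 0.0995).

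Casp1, the gene of caspase-1, lies at chr9:5298508-5307290 on the plus strand of GRCm39 and had 8495 counts on its single entry, NM_009807, the most of the members. In SAT the lean libraries held 34.4, 25.4, 49.6 and 62.2 CPM and the obese libraries 71.8, 65.2, 66.1 and 47.4 CPM. In VAT the lean libraries held 40.0, 45.5, 42.1 and 36.7 CPM and the obese libraries 64.4, 76.9, 74.0 and 40.7 CPM. Both tissues showed the same layout, with 3 obese libraries above all lean libraries and obese replicate 4 among the lean ones, except that lean SAT replicate 4 came close to the obese libraries. The log2 fold change was 0.55 in SAT (SE 0.22, edgeR adjusted p = 0.105) and 0.64 in VAT (SE 0.22, adjusted p = 0.0685). Without obese replicate 4 both passed, at 0.66 in SAT (adjusted p = 0.0459) and 0.83 in VAT (adjusted p = 0.0183). It also passed in SAT without lean replicate 4 (0.76, adjusted p = 0.0327) and in VAT without lean replicate 2 (0.72, adjusted p = 0.0472). With all mice Casp1 passed in VAT by DESeq2 (0.66, adjusted p = 0.0468) and in a fit of the 8 VAT libraries (0.64, adjusted p = 0.0386), and in both tissues without the filter (0.60 in SAT and 0.61 in VAT, adjusted p = 0.00941 and 0.00755). The fit without the filter took no spread of Casp1 itself between mice. Its SE in SAT was 0.165, against 0.218 with the filter. Obese replicate 4 was thus the obese mouse with the lowest Casp1 in each tissue and with the highest Il1rn in each tissue.

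The level of Casp1 did not differ detectably between the tissues. VAT minus SAT was -0.00 in lean mice and 0.01 in obese mice on the log2 scale (SE 0.19 and 0.17), and the difference between the diet responses was 0.01 (SE 0.25, edgeR adjusted p = 0.989). In all, edgeR called 0 of the 3 members tested in SAT (2 at an unadjusted p under 0.05), where it called 11.6% of all genes, and 0 in the difference between tissues (1 at an unadjusted p under 0.05), where it called 2.47%, and DESeq2 and limma voom called 0 in both. In VAT, where edgeR called 12.2% of all genes, edgeR and limma voom called 2 members and DESeq2 called 3.

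**Figure D3:**
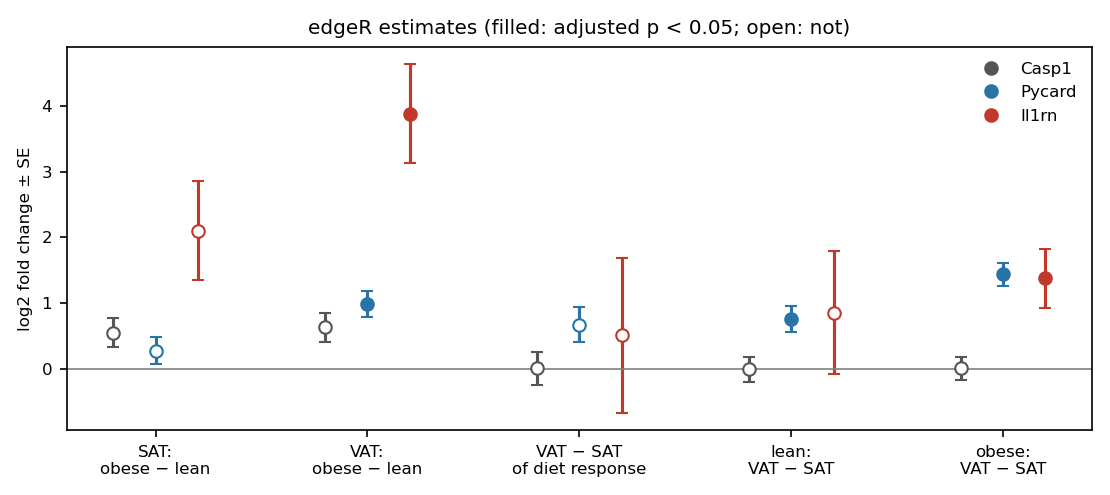
Log2 fold changes with SE of Casp1, Pycard and Il1rn in the 5 comparisons, filled where the adjusted p was under 0.05. Il1rn and Pycard were past the limit in VAT and between the tissues of obese mice, and Casp1 lay near 0 in all 3 comparisons between tissues.

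Of the receptors, Il1r2, the decoy receptor for IL-1 (chr1:40113239-40164391, plus strand), was counted in SAT and hardly in VAT. It has 11 entries, the most of any member, and 58 counts, of which 28 lay on the predicted transcript XM_011238440 and 21 on XM_011238438. The lean SAT libraries held 11, 6, 3 and 3 counts and the obese SAT libraries 8, 6, 6 and 11, so each SAT library had some. The lean VAT libraries held 0, 0, 1 and 2 counts and the obese VAT libraries 0, 0, 0 and 1. The CPM values of the SAT libraries were above those of the VAT libraries of their diet, a layout that 8.86% of all genes tested had in lean mice and 15.1% in obese mice, but the VAT libraries of lean and obese replicate 1 are too shallow to place, since a count of 0 there allows up to 2.39 and 1.33 CPM, above all SAT libraries of their diet (at most 0.914 and 0.852 CPM). Pooled over libraries the rate in SAT was 7.62 times that in VAT in lean mice (exact 95% interval from counts 2.30 to 39.6) and 18.4 times in obese mice (3.07 to 751). Il1r2 was under the filter on low counts. Without the filter VAT minus SAT was -4.15 on the log2 scale in obese mice (SE 1.14, edgeR adjusted p = 0.00383) and -2.66 in lean mice (SE 1.04, adjusted p = 0.133). That fit took no spread of Il1r2 itself between mice, so these adjusted p-values are not on a par with those of the members tested. Neutrophil markers, whose cells are known to carry the decoy receptor, summed to 8.43 to 23.0 CPM in SAT and 2.91 to 13.7 CPM in VAT, and their part in the Il1r2 difference was not tested. Ly6g, the defining neutrophil marker, was at 0 in all libraries, and 2 of the 10 markers passed the filter. Of these S100a8 was called lower in VAT than in SAT in both diets, where 15.9% of all genes passed in lean and 31.4% in obese mice. By diet S100a8 was called higher in obese VAT, where 12.2% passed. The other marker was called in none of these comparisons.

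Il1r1, the signaling receptor of IL-1, lies near it at chr1:40264174-40356417 and had 76 counts on 7 entries. The lean SAT libraries held 2, 0, 3 and 0 counts and the obese SAT libraries 10, 5, 16 and 7. In CPM the obese SAT libraries were at 0.530 to 1.10 and the lean ones at 0 to 0.287, a layout that 9.5% of all genes tested had, but the 0 of lean replicate 4 allows up to 0.652 CPM, above obese replicates 2 and 4, so the separation is not resolved at this depth. Without the filter its log2 fold change in SAT was 2.34 (SE 0.80, edgeR adjusted p = 0.0643), which did not pass. In VAT the groups overlapped, with 14 lean and 19 obese counts. Of the 76 counts 55 lay on the predicted transcript XM_030250619, and the curated transcripts NM_008362 and NM_001123382 had none.

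Il33, the gene of the alarmin IL-33 at chr19:29902483-29938933, had 33 counts on 4 entries, 25 of them in VAT. The lean VAT libraries held 0, 7, 3 and 9 counts and the obese VAT libraries 0, 1, 0 and 5. The groups overlapped, and the log2 fold change without the filter was -1.69 (edgeR adjusted p = 0.446). The pooled rate in obese VAT was 0.315 times that in lean VAT, with an interval of 0.103 to 0.819 that covers counting error only and not the spread between mice. Il1rl1, the gene of its receptor ST2 at chr1:40468730-40504575, had 2 counts in all, both in VAT. Il1b, at chr2:129206490-129213059, had 26 counts, 24 of them on the predicted transcript XM_006498795 and at most 6 in any library, with 3 in lean and 8 in obese SAT and 5 in lean and 10 in obese VAT. The pooled Il1b rate in obese VAT was 1.99 times that in lean VAT with a counting interval of 0.620 to 7.43, so neither a rise nor a fall was detectable at this depth. Il18, at chr9:50466081-50493633, had 4 counts and the sensor gene Nlrp3, at chr11:59432394-59457782, had 6, all 6 in VAT. The 8 SAT libraries with no Nlrp3 count allow, by a floor of 3 counts, up to 0.0858 CPM over the lean group and 0.0511 CPM over the obese group for the entries as counted. Il1b, Il18, Il33, Il1r2, Casp1 and Pycard overlap annotated genes on the opposite strand, and the strand setting of the counting is not stated, so reads of such pairs may not have been told apart.

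Markers of macrophages were higher in obese mice in both tissues. The 10 macrophage markers summed to 1330 to 1899 CPM in lean SAT and 2130 to 3030 CPM in obese SAT, and to 2349 to 3076 CPM in lean VAT and 4975 to 7122 CPM in obese VAT. The groups did not overlap in either tissue, and 5 of 9 markers tested rose in SAT and 7 of 9 in VAT, where 6.35% and 6.89% of all genes rose. Set against this sum, Pycard was 0.454 to 0.633% in lean VAT and 0.407 to 0.492% in obese VAT, which overlapped, and Casp1 overlapped in both tissues. Il1rn was 0 to 0.0256% of the sum in lean VAT and 0.0306 to 0.140% in obese VAT, but the nearest libraries of the groups held 6 and 4 Il1rn counts, so the gap is not resolved at this depth, and in SAT the groups overlapped, at 0 to 0.0616% and 0.0299 to 0.0885%. Among the other lists, lipid-associated macrophage markers rose from at most 296 to at least 602 CPM in VAT, with 6 of 7 tested called, and T and innate lymphoid cell markers from at most 91.0 to at least 117 CPM, with 2 of 4 called. Adipocyte markers went the other way in VAT, where 4 of 8 fell (median -0.64) and 12.2% of all genes passed in either direction. In SAT 1 of 8 fell, and 3 were above 0 (median -0.09). The sums overlapped between the diets in both tissues. They were 16110 to 23340 CPM in lean SAT, 18030 to 20250 CPM in obese SAT, 9364 to 12110 CPM in lean VAT and 7655 to 10070 CPM in obese VAT. In VAT 3 of 6 intestinal epithelium markers tested fell (median -1.31), with sums of 18.8 to 69.7 CPM in lean and 18.3 to 25.9 CPM in obese mice. B cell and lymph node markers were at 100 to 460 CPM in lean VAT, 272 to 533 CPM in obese VAT and at most 22.8 CPM in SAT. By diet 2 of 7 tested rose in VAT (median 0.85) and 0 in SAT. Like Pycard, 6 of 7 were higher in VAT than in SAT of lean mice and 7 in obese mice. So were 5 and 8 of 9 macrophage, 2 and 3 of 6 dendritic cell and all 7 mesothelium markers tested, and 8.67% and 16.3% of all genes. Adipocyte markers were lower in VAT (1 and 5 of 8), and so were 3 of 6 mast cell markers in lean mice. The part of these cells in the changes of Il1rn, Pycard and Casp1 was not tested.

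**Figure D4:**
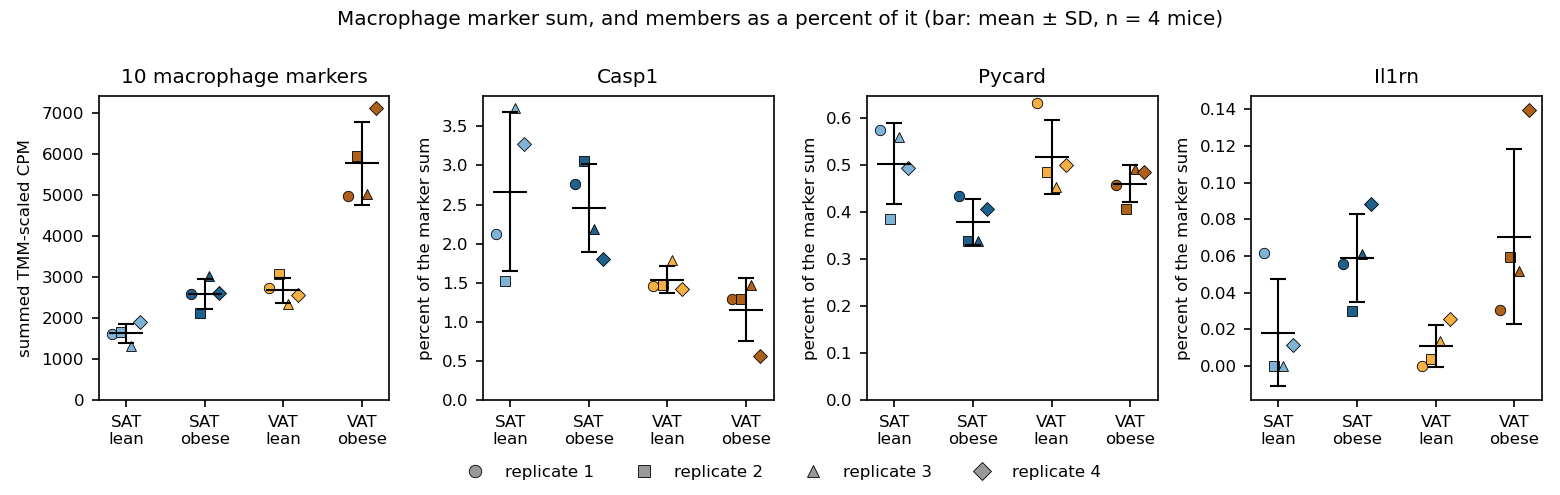
Summed TMM-scaled CPM of 10 macrophage markers (left) and Casp1, Pycard and Il1rn as a percent of that sum, in each library by tissue and diet, with bars for the mean ± SD (n = 4 mice). The marker sum was at 4975 to 7122 CPM in obese VAT, above all other libraries, and the percents of Casp1 and Pycard overlapped between the diets in both tissues.

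Across the 16 libraries the genes most like each member, by Pearson's r of log2 CPM, were Cd9 (0.943), Ap1s2 (0.941) and Prcp (0.931) for Il1rn, Rac2 (0.985), Cd52 (0.982) and Arl4c (0.969) for Pycard, and Nek2 (0.826), Cd300ld3 (0.816) and LOC100039029 (0.815) for Casp1. These values describe 16 libraries that share mice, tissue and diet. Between the members r was 0.634 for Il1rn and Pycard, 0.423 for Il1rn and Casp1, and 0.286 for Casp1 and Pycard. The highest values for Casp1 were thus lower than those for Il1rn and Pycard.

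Other genes of the pathway were counted from lists written for this report, and the median log2 fold change of all 12185 genes tested was -0.00 in SAT and -0.02 in VAT. Of 22 other inflammasome genes 11 were tested. In VAT 5 of them rose and none fell, with a median of 0.83, where 6.89% of all genes rose, and in SAT 2 rose and none fell, with a median of 0.41, where 6.35% of all genes rose. Panx1, the gene of the channel pannexin-1 that releases ATP, rose in both tissues, from 4.08 to 11.7 CPM in lean SAT to 12.8 to 19.0 CPM in obese SAT (log2 fold change 1.12, SE 0.26, edgeR adjusted p = 0.00762), and from 10.7 to 15.7 CPM in lean VAT to 24.8 to 37.6 CPM in obese VAT (1.18, SE 0.26, adjusted p = 0.00373). P2rx7, the ATP receptor upstream of NLRP3, rose in VAT (1.17, adjusted p = 0.0386) and had a log2 fold change of 0.61 in SAT (adjusted p = 0.313). Ninj1, which ruptures the membrane late in pyroptosis, rose in VAT by 0.69 (adjusted p = 0.0285), and Nlrp10 rose there by 1.07 (adjusted p = 0.0337), although obese replicates 1 and 3 were at 3.05 and 4.01 CPM, among the lean libraries. The calls of P2rx7, Ninj1 and Nlrp10 were each lost when 1 of several mice was left out, among them obese replicate 4 (adjusted p = 0.152, 0.103 and 0.199). Naip6, of a family of near-identical genes between which reads may be split, rose by 1.05 in SAT (adjusted p = 4.98e-04) and 1.02 in VAT (adjusted p = 4.92e-04).

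Among the ligands outside the members, Il1a, the gene of IL-1α, was tested. It has 1 entry. Its obese VAT libraries held 2.29, 2.02, 2.05 and 5.73 CPM and its lean VAT libraries 0.666, 0.894, 0.754 and 0.878 CPM. The groups did not overlap, but only obese VAT libraries were above 1 CPM, so that Il1a passed the filter through them alone. In VAT its log2 fold change was 1.88 (SE 0.43, edgeR adjusted p = 0.00539), in a test of the same libraries that took it past the filter, so that p adds little to the values. The fold change was 1.85 without a filter, and 1.34 with an adjusted p of 0.0673 without obese replicate 4. In SAT all 8 libraries were between 0.191 and 0.616 CPM (log2 fold change 0.04, adjusted p = 0.981). In obese mice the fit put VAT above SAT by 2.82 (adjusted p = 1.93e-04), again through the libraries that took Il1a past the filter. The difference between the diet responses was 1.76 (SE 0.84, adjusted p = 0.327) and did not pass. Of 7 other ligand genes 6 were in the table and 2 were tested. Of 7 other receptors of the family 3 were tested. For these edgeR called 0 by diet in SAT (1 at an unadjusted p under 0.05) and 0 in VAT (0 at an unadjusted p under 0.05), as did DESeq2 and limma voom.

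Below the receptor, of 20 genes between MYD88 and NF-κB 14 were tested and their median log2 fold changes were -0.01 in SAT and -0.07 in VAT. In SAT edgeR called 0 of them (2 at an unadjusted p under 0.05) and DESeq2 and limma voom 1 each, and in VAT edgeR called 1 (3 at an unadjusted p under 0.05). Of all genes edgeR called 11.6% in SAT and 12.2% in VAT, and 1 of 14 is not above that share. That 1 gene was Irak4, the kinase next to MYD88. It was at 32.1 to 36.3 CPM in lean VAT and 44.9 to 49.2 CPM in obese VAT, and 7.98% of all genes likewise had obese libraries all above the lean ones. Its log2 fold change was 0.44 (SE 0.11, edgeR adjusted p = 0.0120, and 0.178 without a filter), against 0.13 in SAT. Of 16 genes known to respond to IL-1, which also respond to other NF-κB signals, 11 were tested and 4 rose in each tissue, Vcam1, Icam1, Lcn2 and Nfkbia, with list medians of 0.71 in SAT and 1.02 in VAT, where 6.35% and 6.89% of all genes rose. The endothelial adhesion gene Vcam1 rose from 35.8 to 56.9 CPM to 83.0 to 122 CPM in SAT (1.16, SE 0.15, adjusted p = 3.37e-05) and from 71.5 to 85.2 CPM to 156 to 239 CPM in VAT (1.45, SE 0.15, adjusted p = 2.05e-06). The sum of the endothelium markers, of which Pecam1 was at 0 in all libraries, was also higher in obese mice, although 1 of 6 tested rose in SAT and their median log2 fold change in VAT was 0.22. It was at 234 to 380 against 387 to 433 CPM in SAT and 450 to 509 against 519 to 605 CPM in VAT, and their part in the rise of Vcam1 and Icam1 was not tested.

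Lcn2, the gene of the iron-binding acute-phase protein lipocalin-2, rose in both tissues. In SAT it went from 1.05 to 3.41 CPM in lean mice to 9.37 to 16.6 CPM in obese mice (log2 fold change 2.50, SE 0.30, edgeR adjusted p = 1.49e-05), and in VAT from 7.99 to 15.7 CPM to 18.7 to 32.9 CPM (0.97, SE 0.26, adjusted p = 0.0151). The difference between these responses, -1.49 (SE 0.40), had an adjusted p of 0.0518 and did not pass. Icam1 rose by 0.82 in SAT and 0.81 in VAT, and Nfkbia, which encodes the inhibitor IκBα, by 0.73 and 1.02. In SAT the call of Nfkbia was lost with any of 5 mice left out (lean replicates 2 and 3, obese replicates 1, 2 and 4, adjusted p 0.0523 to 0.0973), and in VAT that of Lcn2 without lean replicate 4 (0.0506) or obese replicate 4 (0.0702). Of the 47 pathway genes tested edgeR called 0 in the difference between tissues, with 6 at an unadjusted p under 0.05, while DESeq2 called 2 and limma voom 1.

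Of 13 genes that IL-33 is known to raise through type 2 lymphocytes and macrophages 6 were tested. In SAT 1 rose and 1 fell, where 11.6% of all genes passed, and in VAT 1 rose, where 12.2% passed. Retnla, a marker of alternatively activated macrophages, fell in SAT, from 725 to 1068 CPM in lean mice to 342 to 604 CPM in obese mice, by 1.01 on the log2 scale (SE 0.17, edgeR adjusted p = 3.81e-04), although the macrophage markers rose there. In VAT its log2 fold change was -0.39 (adjusted p = 0.146). Chil3, a chitinase-like gene of macrophages, rose by 1.93 in SAT (adjusted p = 0.00574) and 2.37 in VAT (adjusted p = 0.00137).

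**Figure D5:**
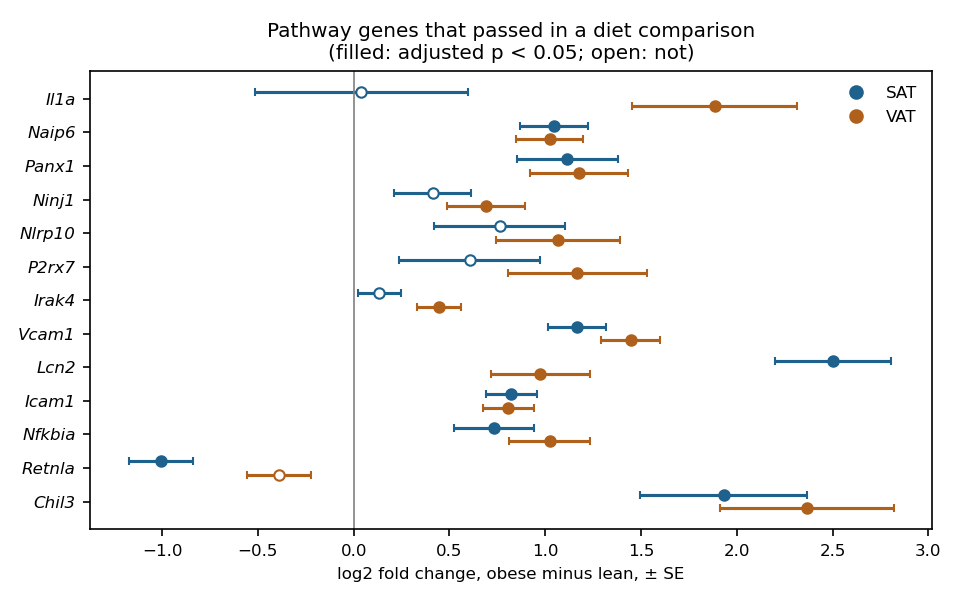
Log2 fold changes (obese minus lean) with SE in SAT and VAT of the pathway genes with an adjusted p under 0.05 in a diet comparison, filled where they passed in that tissue. Retnla lies below 0, Lcn2 is farthest from 0 in SAT, and Il1a is near 0 in SAT and at 1.88 in VAT.

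Between the tissues 21 of the 47 pathway genes tested passed in obese mice, where 31.4% of all genes did, and 10 in lean mice, where 15.9% did. Some of those passed between tissues and in no diet comparison, and the names given here were added after their values were seen. Il18r1, the ligand-binding chain of the IL-18 receptor, was higher in VAT than in SAT by 1.24 in lean mice (SE 0.31, edgeR adjusted p = 0.00889) and 2.44 in obese mice (SE 0.30, adjusted p = 3.64e-06). Ptgs2, the inducible cyclooxygenase, was higher in VAT by 2.28 and 1.87, and the lymphocyte receptor Klrg1 by 1.68 and 1.61, all with adjusted p at or below 0.00166. In obese mice the limit was also passed by the sensor genes Nlrp1b (1.56) and Aim2 (1.67), by Card6 (1.23), Saa3 (1.57) and Ikbkb (1.08), all higher in VAT, and by Nek7 (-0.49), Tab2 (-1.16) and Ikbkg (-0.97), all lower in VAT. These did not pass in lean mice, where Nlrp1b was at 1.07, Aim2 at 0.95 and Saa3 at 1.17, and edgeR called none of them in the difference between the diet responses. In obese mice Nlrp1b was at 0.212 to 0.958 CPM in SAT and 1.52 to 1.87 CPM in VAT, near the filter. Aim2 was at 0.232 to 0.610 and 0.381 to 2.24 CPM, which overlapped. No SAT library held more than 0.914 CPM of Aim2. It thus passed the filter through VAT libraries alone, the side where it was called higher. The T and innate lymphoid cell marker sum overlapped between the tissues in lean mice, at 74.7 to 115 CPM in SAT and 77.6 to 91.0 CPM in VAT, and did not overlap in obese mice, at 97.6 to 113 against 117 to 197 CPM. Its part in these differences was not tested.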

How the data were processed

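Poly-A RNA of 8 SAT and 8 VAT samples was sequenced in paired ends with a directional kit. Per the labels and the methods of the study, the authors used TrimGalore for trimming, HISAT2 2.2.0 for alignment to GRCm39 (RefSeq annotation), HTSeq 0.13.5 for counting and edgeR 3.34.0 for testing. The strand setting and treatment of shared reads are not given in the sources used here. The authors deposited raw counts per RefSeq transcript and CPM, which carry no TMM factor (largest deviation from counts over the column total 4.9e-10). All 32 value columns were used.

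Symbols came from RefSeq identifiers and were found for 106821 entries (82.0%), so further entries of the members may lack one. Counts were summed per symbol. All 16 libraries were fitted together in edgeR 4.0.16 (R 4.3.3) with TMM factors, the quasi-likelihood F-test with legacy=TRUE, and genes with a CPM above 1 in at least 3 libraries. Calls used a Benjamini-Hochberg adjusted p under 0.05 over all 12185 genes tested. Diets were compared within tissues, and tissues and their difference of response with the mouse as a block. SAT and VAT libraries were matched by mouse through the replicate number in the labels, so the pairing rests on those numbers. Their deviations from the group mean correlated by -0.001 to 0.175 (median 0.0765, 8 pairs). SE is the size of the log2 fold change divided by the root of F. Single entries were fitted the same way. Intervals are exact (Clopper-Pearson or Poisson), at 95%, and cover counting error only, and limits from a count of 0 use 3 counts. Whether replicates came from separate litters or cages is not stated.

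The members and lists were chosen with earlier results of these data known. Named are all members, their entries with at least 20 counts, list genes that passed in a diet comparison (at most 6 a list) and the 3 genes most like each tested member. Further genes that passed between tissues, and entries named for having no counts, were added after their values were seen. Not every gene under these rules is reported here. Gene lists hold 7 other ligands and antagonists, 7 other receptors, 22 other inflammasome genes, 20 signaling genes, 16 IL-1 responsive genes, 13 IL-33 responsive genes and markers of 14 cell types. Alternatives were RLE size factors, no filter, filterByExpr, legacy=FALSE, entries in place of summed genes, DESeq2 1.42.0, limma voom 3.58.1 with the mouse as a random effect, fits of a single tissue (8 libraries), replicate number as a block or no block, and each mouse left out. Without a filter the p-values matched a normal distribution of the log2 fold change over its SE, so no gene had a spread of its own. Scripts were tested on simulated data. Gene positions are from GENCODE vM39.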

Additional observations from a re-analysis of the deposited data

Results flagged for a closer look

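Among 64 groups of 4 libraries screened, 5 held a library whose gap to the nearest other one was beyond Dixon's 95% limit, and chance alone flags about 1 group in 20. In obese VAT, replicate 4 had the highest Pycard, 34.7 CPM (the others 22.9 to 24.7), and the highest Il1a, 5.73 CPM (the others 2.02 to 2.29). Without that mouse the VAT diet response of Pycard was 0.85 on the log2 scale (adjusted p = 0.0129) and that of Il1a 1.34 (adjusted p = 0.0673). Obese VAT replicate 3 had the lowest Naip6, 23.8 CPM (the others 33.9 to 35.6). Lean VAT replicate 1, the library with the fewest counts, had the highest Ninj1 of its group, 88.6 CPM (the others 42.8 to 47.1), and the highest Icam1, 64.6 CPM (the others 46.5 to 49.6).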

How the results depend on the processing

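The rises of Il1rn and Pycard in VAT passed in every alternative run, with Il1rn at 3.10 to 4.62 and Pycard at 0.85 to 1.08 on the log2 scale. For Il1rn this is no sign of stability, since its obese libraries carried it past the filter against 11 lean VAT counts. The block by replicate number, which marks no shared animal between diets (deviations of same-numbered libraries correlated by -0.0929 to 0.172 over 8 pairs, median 0.0675, against medians of -0.022 for other numbers of the other diet and 0.0765 for the same mouse), brought Il1rn in SAT past the limit (2.05, adjusted p = 0.0487) and changed no other call of a member. No filter did the same for Il1rn in SAT (2.14) and for Casp1 in SAT (0.60) and VAT (0.61), but that fit took no spread of each gene's own. The entry NM_001039701 did so for Il1rn in SAT (4.40), but it passed the filter only through obese libraries, against 1 lean SAT count. DESeq2 (0.66) and a fit of 8 libraries (0.64) did so for Casp1 in VAT. Members called higher numbered 2 in VAT (2 to 3 with a mouse left out), 1 between tissues in lean mice (0 to 1, 0 without lean replicate 2) and 2 in obese mice (1 to 2, 1 without obese replicate 2 or 4). Some differences that passed in no fit changed sign. That of the Il1rn diet responses (0.52) was 1.77 with no replicate block, -0.96 for the entry and -1.17 to 1.12 with a mouse left out, and that of Casp1 -0.049 without a filter, -0.055 in limma voom and -0.21 to 0.35 with a mouse left out. VAT minus SAT in lean mice was for Il1rn (0.86) -0.21 with no replicate block, 2.57 for the entry and 0.29 to 2.55 with a mouse left out, and for Casp1 0.024 without a filter, 0.055 in limma voom and -0.31 to 0.25 with a mouse left out. In obese mice Casp1 was -0.025 without a filter and -0.039 to 0.11 with a mouse left out. Of 9 losses of a called pathway gene in fits that left out no mouse, those by diet were Irak4, P2rx7 (both without a filter), Ninj1 (8 libraries) and Nlrp10 (8 libraries, limma voom) in VAT, and the others Nfkbia and Nlrp10 between the tissues of obese mice. With a mouse left out there were 29. Over all genes the calls numbered 1414 in SAT (926 to 1469 with a mouse left out), 1482 in VAT (847 to 1626), 301 in the difference (453 by DESeq2, 139 with no replicate block, 135 to 386), 1937 between tissues in lean mice (1276 to 1945) and 3820 in obese mice (2490 to 4076). The cause of these changes was not tested. The counts limit Il1b, Il18, Il1r1, Il1r2, Il1rl1, Il33 and Nlrp3, which were under the filter on low counts.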

Other observations

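Markers of mast cells, which are known to carry the IL-33 receptor, summed to 49.3 to 79.3 CPM in lean SAT, 68.4 to 116 CPM in obese SAT, 20.6 to 33.5 CPM in lean VAT and 25.5 to 108 CPM in obese VAT, and 3 of 6 tested rose in VAT, where 6.89% of all genes rose. Dendritic cell markers were at 37.9 to 47.8, 44.6 to 59.7, 38.6 to 56.0 and 41.9 to 81.0 CPM in the same groups, and 3 of 6 tested (Flt3, Xcr1 and Ccr7) rose in VAT with the diet and were higher in VAT than in SAT of obese mice, as 16.3% of all genes were. The part of mast and dendritic cells in the changes of the members was not tested. Adipose progenitor markers overlapped between the diets in both tissues, at 1173 to 2601 CPM. Intestinal epithelium markers, of which 4 of 6 tested were higher in lean VAT than in lean SAT (8.67% of all genes), were at 16.9 to 28.3 CPM in SAT. Their part in the tissue differences of the members was not tested. Keratinocyte markers were at 4.03 to 14.7 CPM over all libraries. Skeletal muscle markers were at 0 to 3.32 CPM, and Tnnt3, Krt5 and Prox1 were at 0 in all.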
